A study of Mus musculus with 18 samples.

Results

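The RNA studied here was bulk RNA of cells enriched for mouse plasmacytoid dendritic cells (pDCs). Hepacam2, Tenm4, Matn2, Hrh1, Abca6, Plekha6 and B3galt5 are 7 genes whose mRNA nearly disappeared from it with imiquimod. They were chosen by name because they are among the largest falls with imiquimod at 6 and 16 h, so those falls are described here with no test. All 7 passed the expression filter, out of 14876 genes that did so and 54532 genes in the count table. Of the 42 imiquimod values (7 genes in 6 libraries) 39 held at least 1 count, and whether these few counts came from the pDCs was not tested.

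Bone marrow cells of C57BL/6 mice, wild-type in genotype, were cultured for 7 days with Flt3 ligand at 80 ng/mL, and pDCs were then bead-enriched by B220, with 80% given as the routine purity by flow cytometry. Imiquimod, which activates the RNA-sensing receptor TLR7 in endosomes, was given at 2.5 µg/mL. There were 3 libraries in each of 6 groups, namely imiquimod at 6 h and 16 h, the vehicle (named LAL, Limulus amebocyte lysate) at 0, 6 and 16 h, and untreated cells at 0 h. All groups shared the strain, the genotype, the Flt3 ligand culture and the bead enrichment, and the series as a whole concerns the capacity of imiquimod-activated pDCs to kill tumour cells.

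pDCs are known for making type I interferon after endosomal Toll-like receptors sense nucleic acid, and once activated they mature and take on features of antigen-presenting cells. Most of the 7 products act at or outside the cell surface. HEPACAM2 is an adhesion molecule of the immunoglobulin superfamily, teneurin-4 (Tenm4) is a large transmembrane protein whose family binds latrophilins on other cells, matrilin-2 (Matn2) is a secreted matrix adaptor, and the H1 receptor (Hrh1), the target of many antihistamines, signals histamine through Gq. ABCA6 is a transporter-family protein linked to lipids, PLEKHA6 is a pleckstrin homology domain protein of cell junctions, and B3GALT5 is a Golgi enzyme that adds galactose in beta-1,3 linkage to sugar chains.

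The start regions of the genes are shown because the genes were low together, and RefSeq (GRCm38.p6) lists windows of 300 bases, from 250 before to 50 after a transcript start, for 5 of the 7. These 5 genes have 11 windows. Of the windows with a motif match, 1 is printed for each of 4 genes, 5′ to 3′ on the gene's own strand, and capitals mark the matches. The Hepacam2 window (chr6:3494449-3494748, minus strand) holds TATAAA, the letters of a TATA box, but they begin 233 bases before the start. A further match on the other strand overlaps them. The window also holds the E-box CAGGTG that E proteins such as TCF4 bind. Of the Tenm4 windows 1 (chr7:96170994-96171293, plus strand) holds the interferon response element, GAAA and GAAA with 2 bases between them. So does 1 of the Hrh1 windows (chr6:114403416-114403715, plus strand), and the other windows of both genes lack it. Of the B3galt5 windows 1 (chr16:96280782-96281081, plus strand) holds the Runx site TGTGGT.
Hepacam2: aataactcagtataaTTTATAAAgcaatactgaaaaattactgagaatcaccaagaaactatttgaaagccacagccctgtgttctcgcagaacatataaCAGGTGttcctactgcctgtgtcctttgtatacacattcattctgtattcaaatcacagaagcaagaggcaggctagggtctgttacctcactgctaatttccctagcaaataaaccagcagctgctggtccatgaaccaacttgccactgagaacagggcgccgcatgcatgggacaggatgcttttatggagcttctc
Tenm4: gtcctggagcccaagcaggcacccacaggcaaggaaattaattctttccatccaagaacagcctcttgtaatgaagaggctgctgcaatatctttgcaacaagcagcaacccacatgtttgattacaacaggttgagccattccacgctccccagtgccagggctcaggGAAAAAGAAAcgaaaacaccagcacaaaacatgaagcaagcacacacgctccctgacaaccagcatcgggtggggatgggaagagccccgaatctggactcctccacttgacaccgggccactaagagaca
Hrh1: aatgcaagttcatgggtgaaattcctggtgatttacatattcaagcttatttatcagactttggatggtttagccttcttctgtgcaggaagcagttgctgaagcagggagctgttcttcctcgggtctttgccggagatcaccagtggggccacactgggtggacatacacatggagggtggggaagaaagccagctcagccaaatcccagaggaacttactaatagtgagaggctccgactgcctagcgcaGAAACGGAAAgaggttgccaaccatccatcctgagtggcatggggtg
B3galt5: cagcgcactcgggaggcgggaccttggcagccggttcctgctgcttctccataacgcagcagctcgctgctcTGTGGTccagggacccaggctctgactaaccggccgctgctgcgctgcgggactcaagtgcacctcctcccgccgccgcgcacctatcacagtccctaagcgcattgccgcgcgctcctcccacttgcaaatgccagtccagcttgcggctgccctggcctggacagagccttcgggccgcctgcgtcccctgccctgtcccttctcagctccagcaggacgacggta

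Searched on both strands, CAGGTG was in 2 of the 11 windows and in 20.2% of all 32817 windows of that length. The interferon response element was in 2 of 11 and in 3.43% of all, TGTGGT in 1 of 11 and 16.8% of all, TATAAA in 1 of 11 and 13.6% of all, and the AP-1 site TGANTCA in 1 of 11 and 7.81% of all. The Ets-IRF composite, GGAA and GAAA with 2 bases between them, which can overlap the interferon response element, was in 0 of 11 and in 2.72% of all. In the printed Tenm4 window the interferon response element began 81 bases before the start. In the printed Hrh1 window it began at base 3 after the start. In base composition the 11 windows ran from 43% G and C in Hepacam2 to 78.3% in an Hrh1 window that was not printed, against a median of 52.7% over all windows. These matches describe letters in the windows only.

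Total counts per library ran from 10609741 to 13447018. Nothing in the labels ties the 3 libraries of a group to separate animals or cultures, so a p-value here reflects library spread that may be technical. Counting intervals cover counting error only. The pDC markers were expressed in every group, with summed levels over 11 genes of 6222 to 6460 CPM (counts scaled to library size by TMM) in imiquimod at 6 h, 7347 to 7508 in vehicle at 6 h, 4353 to 4432 in imiquimod at 16 h and 8967 to 9079 in vehicle at 16 h. With imiquimod 5 of the 11 were higher and 6 lower at 6 h, and 1 was higher and 8 lower at 16 h, while of all genes 37.7% were higher and 39.2% lower at 6 h and 39.1% and 38.1% at 16 h. Siglech, a pDC surface receptor gene, averaged 299 CPM in imiquimod and 1154 CPM in vehicle at 6 h, and 169 against 1636 CPM at 16 h. Ly6d, on the same list, went the other way, at 583 against 173 CPM at 6 h and 596 against 152 CPM at 16 h. Spib stood at 861 against 443 CPM at 6 h and at 509 against 549 CPM at 16 h. Markers of other cells moved as well. The 8 cDC1 markers summed to 548 to 578 CPM in imiquimod and 1384 to 1400 in vehicle at 6 h, with 8 of 8 lower, and to 503 to 538 and 1200 to 1247 CPM at 16 h, with 7 of 8 lower. The 8 monocyte and macrophage markers summed to 252 to 259 and 1617 to 1760 CPM at 6 h, with 3 higher and 4 lower of 7 tested, and to 99.6 to 116 and 2041 to 2118 CPM at 16 h, with 2 higher and 5 lower, and most of the vehicle sum was Ccr2. The 8 cDC2 markers summed to 362 to 366 and 489 to 506 CPM at 6 h, with 1 higher and 6 lower, and to 226 to 230 and 470 to 483 CPM at 16 h, also with 1 higher and 6 lower. The 11 B cell markers went the other way in sum, at 479 to 513 and 223 to 240 CPM at 6 h, although 5 of 8 tested were lower and 3 higher, and at 330 to 346 and 262 to 287 CPM at 16 h, with 1 higher and 6 lower. The stroma and endothelium list summed to 602 to 655 and 219 to 227 CPM at 6 h and to 408 to 418 and 254 to 277 CPM at 16 h, nearly all of it Pecam1 and Cdh5, and the mast cell and basophil list to 60.9 to 69.1 and 118 to 123 CPM at 6 h and to 91.8 to 95.5 and 145 to 149 CPM at 16 h, nearly all of it Kit. Neutrophil, T and NK cell and erythroid sums were at most 8.01 CPM in these 4 groups, and the alpha-globin gene Hba-a2 was at 0. The part of these cell types in the falls of the 7 genes was not tested, and in bulk RNA fewer cells that express a gene cannot be told apart from less RNA per cell.

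**Figure D1:**
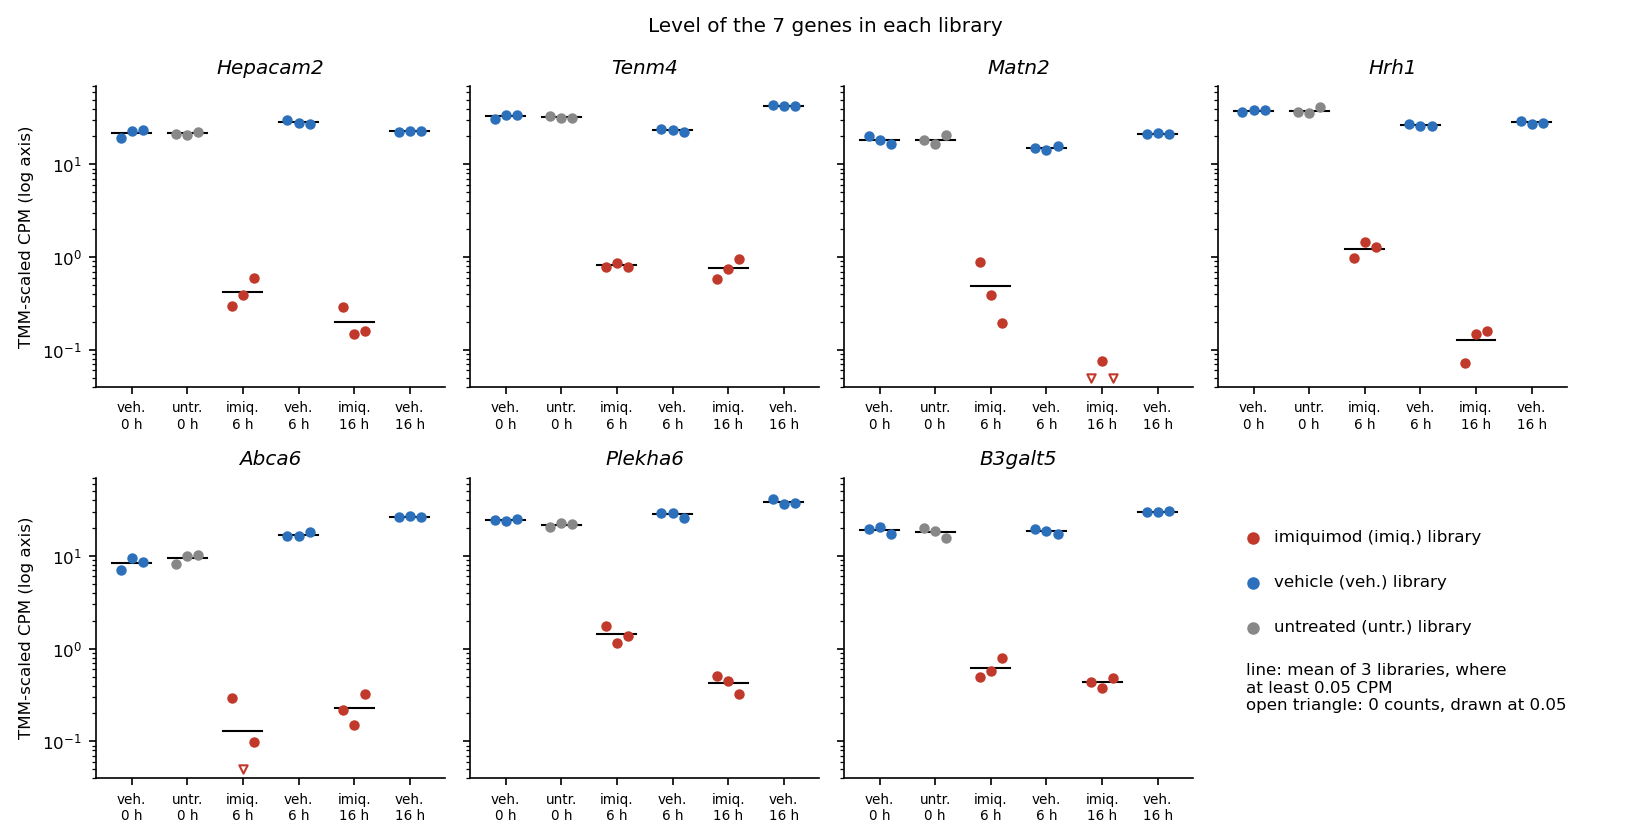
Level of each of the 7 genes in every library, in TMM-scaled CPM on a log axis, with the mean of 3 libraries as a line. All imiquimod libraries (red) lie below all vehicle (blue) and untreated (grey) libraries for every gene, and open triangles mark the 3 values at 0 counts.

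In all 7 genes every imiquimod library lay below every vehicle library of the same time. Over all genes tested, 39.1% were lower without overlap in this way at 6 h and 38.7% at 16 h, and since the genes were chosen on these falls nothing is read from their number. The highest count of any of the 7 in an imiquimod library was 18, against a lowest count of 89 in the 84 values from libraries without imiquimod. The median log2 fold change of the 7 genes was -4.88 at 6 h and -6.74 at 16 h, against -0.04 and -0.00 over all 14876 genes. Ranked from the lowest fold change of all genes, the 7 stood between places 15 (Abca6) and 150 (Plekha6) at 6 h and between places 3 (Matn2) and 69 (Tenm4) at 16 h. Against the vehicle at 0 h they were lower too, with a median of -5.20 at 6 h and -5.77 at 16 h, so the levels in imiquimod were also far below those at the start of the treatment.

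Among the surface proteins, Hepacam2 (ENSMUSG00000044156.14, mm10 chr6:3457096-3498298, minus strand) had 3, 4 and 6 counts in the imiquimod libraries at 6 h, against 388, 360 and 329 in the vehicle libraries. At 16 h it had 4, 2 and 2 counts with imiquimod and 242, 257 and 266 with vehicle. Each imiquimod library was thus close to empty for this adhesion gene, at both times. The mean level was 0.423 ± 0.151 CPM in imiquimod and 28.3 ± 1.66 CPM in vehicle at 6 h (SD, n = 3 each), and 0.201 ± 0.0793 against 22.7 ± 0.459 CPM at 16 h. Scaled for depth, vehicle counts were 66.9 times those of imiquimod at 6 h (exact 95% interval 39 to 126) and 112 times at 16 h (56.6 to 261). What was left with imiquimod was 1.5% of the vehicle level at 6 h and 0.884% at 16 h.

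Tenm4 (ENSMUSG00000048078.16, chr7:96171246-96911093, plus strand) spans 740 kb, the longest of the 7. It had 8, 9 and 8 counts in imiquimod at 6 h, against 308, 304 and 272 in vehicle, and 8, 10 and 12 at 16 h, against 471, 483 and 487. The imiquimod libraries hardly differed between the 2 times, whereas the vehicle libraries at 16 h all stood above those at 6 h. In CPM the means were 0.814 ± 0.0499 in imiquimod and 23.2 ± 0.835 in vehicle at 6 h, and 0.766 ± 0.189 against 42.8 ± 0.449 at 16 h. The vehicle to imiquimod ratio was 28.6 at 6 h (19.2 to 44.4) and 56.3 at 16 h (39.3 to 83.8). The share of the vehicle level left was 3.5% at 6 h and 1.79% at 16 h, the largest of the 7 at 16 h.

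Hrh1 (ENSMUSG00000053004.9, chr6:114397936-114483296, plus strand) had 10, 15 and 13 counts in imiquimod at 6 h, against 354, 335 and 313 in vehicle. At 16 h only 1, 2 and 2 counts remained with imiquimod, against 321, 310 and 324 with vehicle. The H1 receptor mRNA was therefore lower at 16 h than at 6 h in every imiquimod library, while the vehicle libraries of the 2 times overlapped in CPM. Its mean was 1.24 ± 0.238 CPM in imiquimod and 26.4 ± 1.03 CPM in vehicle at 6 h, and 0.128 ± 0.0477 against 28.4 ± 1.02 CPM at 16 h. The vehicle to imiquimod ratio was 21.3 at 6 h (15.4 to 30.3) and 224 at 16 h (95.7 to 692).

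Matn2 (ENSMUSG00000022324.15, chr15:34306677-34436273, plus strand), the secreted member, had 9, 4 and 2 counts in imiquimod at 6 h, against 194, 185 and 190 in vehicle. At 16 h it had 0, 1 and 0 counts with imiquimod, against 234, 246 and 242 with vehicle. A single count in 3 libraries was thus all that was seen at 16 h, where Matn2 had the third lowest fold change of all genes tested. The mean was 0.489 ± 0.354 CPM in imiquimod and 15 ± 0.67 CPM in vehicle at 6 h, and 0.025 ± 0.0434 against 21.5 ± 0.379 CPM at 16 h. The vehicle to imiquimod ratio was 30.7 at 6 h (18.4 to 55.1), and at 16 h it was 847 with a counting interval of 152 to 33493. Few counts made the fitted values of Matn2 depend on 1 library. The log2 fold change of -4.91 at 6 h was -5.63 without imiquimod replicate 1, and that of -9.23 at 16 h was -10.99 without imiquimod replicate 2.

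Abca6 (ENSMUSG00000044749.13, chr11:110176820-110251776, minus strand), the transporter-family member, had 3, 0 and 1 counts in imiquimod at 6 h, against 212, 211 and 219 in vehicle. At 16 h it had 3, 2 and 4 counts with imiquimod and 288, 303 and 302 with vehicle. It was the lowest of the 7 at 6 h, and the 16 h imiquimod libraries overlapped those at 6 h. The mean was 0.131 ± 0.15 CPM in imiquimod and 16.9 ± 0.926 CPM in vehicle at 6 h, and 0.23 ± 0.0857 against 26.5 ± 0.301 CPM at 16 h. The vehicle to imiquimod ratio was 130 at 6 h (50.4 to 477) and 116 at 16 h (61 to 255). Without imiquimod replicate 1 the log2 fold change at 6 h was -8.16, in place of -6.91.

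B3galt5 (ENSMUSG00000074892.9, chr16:96235801-96319859, plus strand), the galactosyltransferase gene, had 5, 6 and 8 counts in imiquimod at 6 h, against 252, 242 and 210 in vehicle. At 16 h it had 6, 5 and 6 counts with imiquimod and 320, 332 and 351 with vehicle. These are among the most even values of the set, with imiquimod libraries between 5 and 8 counts throughout. The mean was 0.619 ± 0.151 CPM in imiquimod and 18.5 ± 1.19 CPM in vehicle at 6 h, and 0.432 ± 0.053 against 29.8 ± 0.649 CPM at 16 h. The vehicle to imiquimod ratio was 29.9 at 6 h (19 to 50) and 69.2 at 16 h (43 to 119).

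Plekha6 (ENSMUSG00000041757.16, chr1:133164210-133303435, plus strand), the pleckstrin homology gene, had 18, 12 and 14 counts in imiquimod at 6 h, against 376, 378 and 311 in vehicle. At 16 h it had 7, 6 and 4 counts with imiquimod and 444, 412 and 431 with vehicle. With imiquimod 5.13% of the vehicle level was left at 6 h, the largest share of the 7 at that time, and 1.12% at 16 h. The mean was 1.43 ± 0.306 CPM in imiquimod and 28 ± 2.12 CPM in vehicle at 6 h, and 0.428 ± 0.0976 against 38.3 ± 2.23 CPM at 16 h. The vehicle to imiquimod ratio was 19.6 at 6 h (14.5 to 27.1) and 88.8 at 16 h (55.2 to 153).

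**Figure D2:**
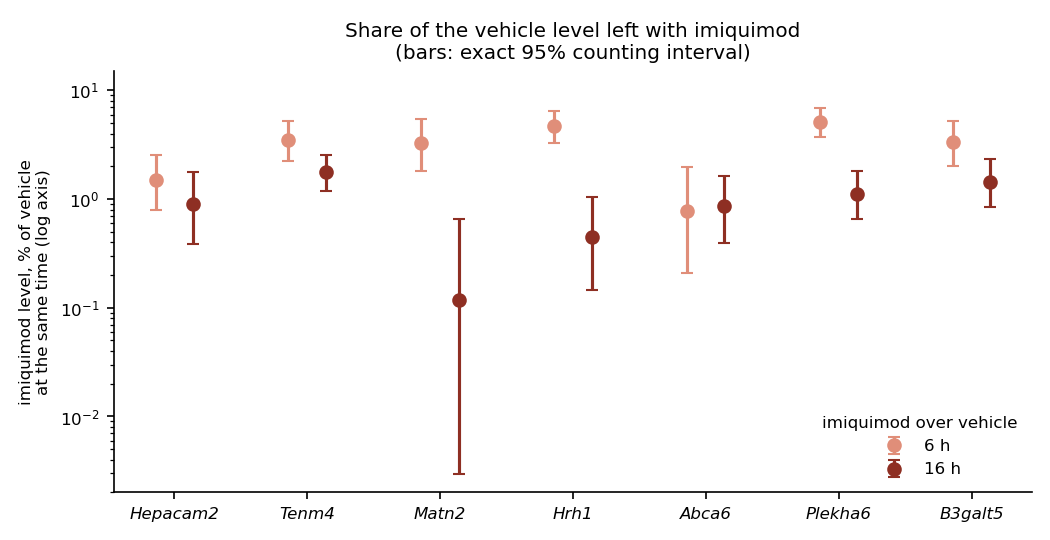
Level left with imiquimod as a percentage of the vehicle at the same time, on a log axis, at 6 h (light) and 16 h (dark), with exact 95% counting intervals as bars. At 6 h the 7 genes lie between 0.773% (Abca6) and 5.13% (Plekha6), and at 16 h between 0.117% (Matn2) and 1.79% (Tenm4).

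The genes differed in how far the residual level moved between the 2 imiquimod times. These libraries were used in choosing the genes, so the values are a description. Within each time, genes next to each other in the order of the vehicle to imiquimod ratio had overlapping counting intervals. For Hrh1 the log2 fold change at 16 h over 6 h was -3.19, from 5 counts at 16 h and 38 at 6 h, and the 6 h count was 9.77 times that at 16 h after scaling for depth (exact 95% interval 3.84 to 31.8). Matn2 had a ratio of 19.3 (2.97 to 811) from 1 count at 16 h and 15 at 6 h, and Plekha6 one of 3.33 (1.86 to 6.21). For Hepacam2 the interval of 0.802 to 5.81 included 1, as it did for B3galt5 (0.707 to 2.94), Tenm4 (0.604 to 1.88) and Abca6 (0.129 to 2.05), and these intervals cover counting error only. Every imiquimod library at 16 h lay below every one at 6 h in 5 of the 7 genes, as in 33.5% of all genes, Tenm4 and Abca6 being the ones that overlapped. In Hepacam2 the gap was narrow, with at most 0.292 CPM at 16 h and at least 0.294 CPM at 6 h, and in B3galt5 the libraries lay at 0.376 to 0.481 CPM at 16 h and 0.49 to 0.785 CPM at 6 h.

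The levels before and without imiquimod were compared next. The rule that chose the genes names falls with imiquimod and no reference group. Vehicle and untreated cells at 0 h are taken here as having played no part in it. Hepacam2 averaged 21.8 ± 2.35 CPM in vehicle and 21.6 ± 0.729 CPM in untreated cells, Tenm4 32.9 ± 2.05 and 32.2 ± 0.73 CPM, and Hrh1 37.9 ± 0.686 and 37.9 ± 2.8 CPM. Matn2 averaged 18.3 ± 1.77 CPM in vehicle and 18.4 ± 2.06 CPM in untreated cells, and B3galt5 19.1 ± 1.83 and 18 ± 2.23 CPM. For these 5 genes the vehicle and untreated libraries overlapped. Abca6 averaged 8.39 ± 1.24 CPM in vehicle and 9.47 ± 1.11 CPM in untreated cells, with overlap, and Plekha6 24.1 ± 0.565 and 21.7 ± 0.987 CPM, without overlap, as in 10.9% of all genes in either direction. By edgeR's quasi-likelihood test 0 of the 7 were called at an adjusted p under 0.05, against 0% of all genes, and 0 of the 7 had an unadjusted p under 0.05, as in DESeq2, which called 0 too. Over all genes 708 had an unadjusted p under 0.05 in edgeR and 347 in DESeq2. The log2 differences ran from -0.18 in Abca6 (approximate 95% interval -0.43 to 0.07, adjusted p = 0.98) to 0.15 in Plekha6 (-0.00 to 0.31, adjusted p = 0.98).

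In vehicle alone the 7 genes did not move together. The 6 h and 16 h vehicle libraries are taken here as those that the imiquimod libraries were set against when the genes were chosen. That choice can favour genes that are high in these libraries. The p-values below are not free of it, and nothing is read from the number of the 7 called. The comparisons with 0 h also share the vehicle libraries at 0 h. At 6 h against 0 h, 3 of the 7 were higher and 3 lower by edgeR, against 26% and 26.9% of all genes. Vehicle replicates 1 and 2 at 6 h differed more than any other pair within a group, with a chi-square per degree of freedom of 10.5 over all genes. The other vehicle pairs at 6 h had 4.21 and 4.25. These compare with 1.32 to 2.56 in both imiquimod groups and in vehicle at 0 h and 16 h, and 1.88 to 4.21 in untreated cells. Without each of the vehicle 6 h libraries in turn 5 or 6 of the 7 were called. Abca6 rose to 16.9 CPM at 6 h, against 8.39 CPM at 0 h, or 1.01 on the log2 scale (SE 0.11, adjusted p = 9.97e-13). Hepacam2 rose by 0.38 (SE 0.079, adjusted p = 3.07e-05) and Plekha6 by 0.21 (SE 0.075, adjusted p = 0.0125). Hrh1 fell to 26.4 CPM, against 37.9 CPM at 0 h (log2 -0.52, SE 0.069, adjusted p = 5e-10), Tenm4 to 23.2 CPM, against 32.9 CPM (-0.50, SE 0.071, adjusted p = 5.75e-09), and Matn2 to 15 CPM, against 18.3 CPM (-0.29, SE 0.097, adjusted p = 0.00808). B3galt5 was not called, at -0.04 (95% interval -0.22 to 0.13). The Plekha6 call was lost without vehicle 6 h replicate 1 or 2 (0.18 and 0.19) and in DESeq2, and the Matn2 call without vehicle 0 h replicate 1 (-0.22).

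At 16 h against 0 h in vehicle, 5 of the 7 were higher and 1 lower, against 28.4% and 30% of all genes. Here too the choice of the genes can favour higher values in vehicle at 16 h. Abca6 reached 26.5 CPM at 16 h, against 8.39 CPM at 0 h, or 1.66 on the log2 scale (SE 0.1, adjusted p = 1.97e-24). Plekha6 rose by 0.66 (SE 0.073, adjusted p = 7.01e-13), B3galt5 by 0.64 (SE 0.083, adjusted p = 2.41e-10) and Tenm4 by 0.38 (SE 0.065, adjusted p = 5.29e-07). Matn2 rose by 0.23 (SE 0.093, adjusted p = 0.0317). That call was lost under scaling by library totals (0.18), in DESeq2, and without vehicle 0 h replicate 2 (0.22) or 3 (0.16) or vehicle 16 h replicate 1 (0.22) or 2 (0.21). Hrh1 stayed lower than at 0 h, by a log2 value of -0.42 (SE 0.069, adjusted p = 2.61e-07). Hepacam2 was not called, at 0.06 (95% interval -0.10 to 0.22). Directly between 16 h and 6 h in vehicle, 5 of the 7 were higher and 1, Hepacam2, lower, against 14.6% and 15.4% of all genes. Tenm4 showed the widest step, with 42.8 CPM at 16 h, against 23.2 CPM at 6 h (0.88, SE 0.069, adjusted p = 9.96e-19), and Hrh1 was not called (0.11, 95% interval -0.04 to 0.25).

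**Figure D3:**
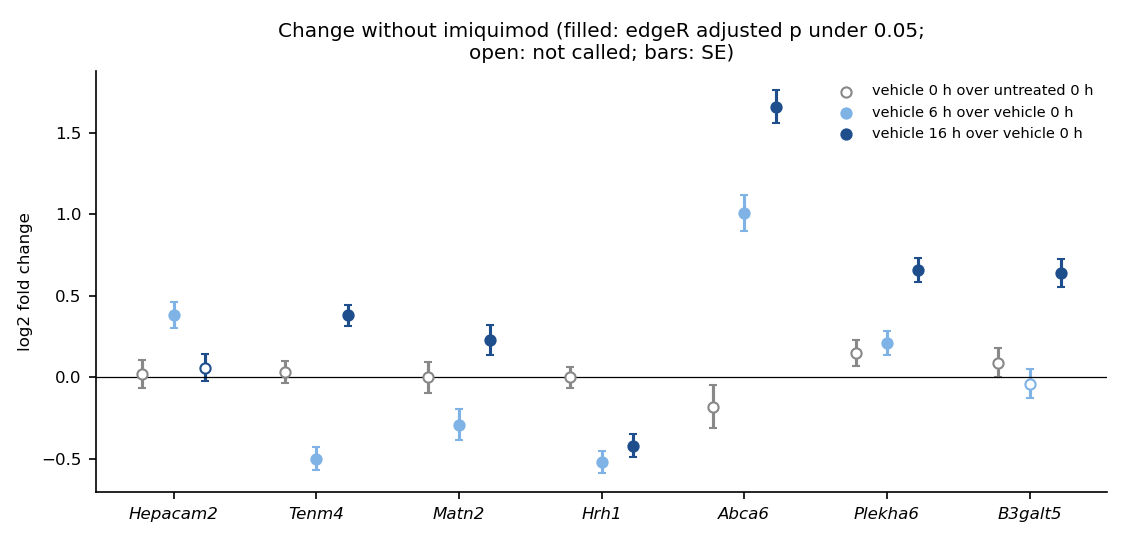
Log2 fold changes of the 7 genes in libraries without imiquimod, for vehicle at 0 h over untreated cells (grey), vehicle at 6 h over 0 h (light blue) and vehicle at 16 h over 0 h (dark blue), with SE bars; filled points were called by edgeR. Abca6 stands highest at 1.01 and 1.66, Hrh1 is lower at both times, and the grey points lie between -0.18 and 0.15.

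Ordered by mean level over the 6 groups, vehicle at 16 h was the highest group for 5 genes, vehicle at 6 h for Hepacam2 and vehicle at 0 h for Hrh1. Imiquimod at 16 h was the lowest for 6 genes, and imiquimod at 6 h for Abca6. Neighbouring groups in this order overlapped for vehicle and untreated cells at 0 h in Hepacam2, Tenm4, Matn2, Hrh1 and Abca6, and for vehicle at 16 h and 6 h in Hrh1. The 2 imiquimod groups overlapped in Tenm4 and Abca6. For B3galt5, vehicle at 6 h overlapped both vehicle at 0 h and untreated cells, for Hepacam2 vehicle at 16 h overlapped vehicle at 0 h, and for Plekha6 no neighbouring groups overlapped. Per kilobase of exon, where genes can be compared, Hrh1 was the most abundant in vehicle at 0 h with 8.52 ± 0.154 CPM per kb, and Hepacam2 followed with 3.72 ± 0.4 CPM per kb. At the low end stood Plekha6 with 1.93 ± 0.0451, Tenm4 with 1.56 ± 0.0976 and Abca6 with 1.55 ± 0.23 CPM per kb. In vehicle at 16 h Hrh1 was still the highest at 6.38 ± 0.229 CPM per kb, while Abca6 stood at 4.92 ± 0.0557, B3galt5 at 4.84 ± 0.105 and Tenm4 at 2.04 ± 0.0214 CPM per kb.

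The 7 genes lie on 6 chromosomes, with Hepacam2 and Hrh1 both on chromosome 6. All 7 span more than the median of 23.9 kb over 11104 tested protein-coding genes, from 41.2 kb in Hepacam2 to 740 kb in Tenm4, and 6 of 7 exceed the median exon length of 4.53 kb, with Hrh1 at 4.45 kb as the exception. Reads could be shared with another gene in few places. Of the windows of 75 bases in each gene's transcripts, 3.95% in Tenm4 were shared with C230038L03Rik, which overlaps it on the opposite strand and had 9 counts over all 18 libraries. In Plekha6 3.62% were shared with Gm19461, also opposite and at 0 counts, in Matn2 0.0632%, and in the other 4 genes 0%. 9430069I07Rik, which overlaps exons of Matn2 on the opposite strand, had 10 counts.

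Relatives of the 7 genes, listed by family or pathway, were tested with edgeR. Of 70 relatives, 34 passed the filter. In imiquimod at 6 h 12 of them were higher, 16 lower and 6 without a call, against 37.7% higher and 39.2% lower of all genes. For 16 h the numbers were 9 higher, 20 lower and 5 without a call, against 39.1% and 38.1%. Their median log2 fold change was -0.34 at 6 h and -0.33 at 16 h, against -4.88 and -6.74 for the 7 genes that were chosen for their falls.

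Histamine genes went the opposite way to Hrh1. Hdc, the gene of the enzyme that makes histamine, had 21.8 CPM in imiquimod and 0.134 CPM in vehicle at 6 h, from 668 counts against 5, a ratio of 165 (log2 7.26, SE 0.25, edgeR adjusted p = 3.52e-41; 7.95 without vehicle replicate 3). At 16 h Hdc stood at 1.13 CPM in imiquimod and 0.356 CPM in vehicle (1.65, SE 0.42, adjusted p = 0.000309). Hrh2, the Gs-coupled H2 receptor gene, had 22.2 CPM in imiquimod and 8.18 CPM in vehicle at 6 h (1.44, SE 0.11, adjusted p = 8.77e-21), and 16.1 against 8.62 CPM at 16 h (0.91, SE 0.11, adjusted p = 2.38e-11). Both tested members of this list therefore rose at both times, against 37.7% of all genes called higher at 6 h and 39.1% at 16 h. The other 6, with the H3 and H4 receptor genes and the histamine-degrading Hnmt and Aoc1, were under the filter. Hdc is also active in basophils and mast cells. Of the 7 markers listed for them, Kit averaged 63.3 CPM in imiquimod and 119 CPM in vehicle at 6 h, and 93.4 against 146 CPM at 16 h. Prss34 averaged 1.21 and 0.753 CPM at 6 h and 0.467 and 0.481 CPM at 16 h, Mcpt8 0.424 and 0.158 CPM at 6 h and 0.156 and 0.385 CPM at 16 h, and the other 4 at most 0.358 CPM in these groups. The part of these cells in the Hdc values was not tested.

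Around Tenm4, the latrophilin gene Adgrl2 fell to 2.21 CPM in imiquimod, against 16.4 CPM in vehicle, at 6 h (log2 -2.88, SE 0.15, adjusted p = 3.1e-29), and to 1.06 against 19.6 CPM at 16 h (-4.19, SE 0.16, adjusted p = 7.07e-38). Adgrl1 fell at 6 h (-1.13, SE 0.13, adjusted p = 4.69e-13) but was not called at 16 h (-0.19, SE 0.11, adjusted p = 0.107). Tenm1, Tenm2 and Tenm3 were under the filter, at no more than 0.287 CPM in any of the 4 groups, so that of the teneurins Tenm4 alone passed the filter. Matn2 was likewise the matrilin above the filter, with all 8 listed relatives, among them Matn1, Matn3 and Matn4, below it.

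Of the adhesion genes listed with Hepacam2, 4 of 8 passed the filter. At 6 h 2 were higher and 1 lower, against 37.7% and 39.2% of all genes, and at 16 h 0 and 3, against 39.1% and 38.1%. Cadm1, an immunoglobulin superfamily adhesion gene that is also a cDC1 marker, fell to 59.1 CPM in imiquimod, against 127 CPM in vehicle, at 6 h (-1.11, SE 0.05, adjusted p = 3.75e-34) and to 18.7 against 116 CPM at 16 h (-2.63, SE 0.059, adjusted p = 2.06e-54). Cadm3 rose at 6 h (1.91, SE 0.14, adjusted p = 6.8e-21), as did Cadm4 (1.30, SE 0.18), and the lower call of Cadm3 at 16 h (-0.37, adjusted p = 0.0434) was lost in DESeq2, without a filter and without any of 5 libraries in turn (-0.41 to -0.25). Esam, an endothelial adhesion gene, was lower at 16 h (-1.87, SE 0.41), or -1.25 without vehicle replicate 1. Hepacam itself had 0 CPM in imiquimod and in vehicle at both times.

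All 7 tested ABCA genes other than Abca6 were called at both times, with 3 higher and 4 lower at 6 h, against 37.7% and 39.2% of all genes, and 2 higher and 5 lower at 16 h, against 39.1% and 38.1%. Abca1, the cholesterol exporter gene, fell to 3.22 CPM in imiquimod, against 24.7 CPM in vehicle, at 6 h (-2.93, SE 0.12, adjusted p = 6.08e-36) and to 2.11 against 29.7 CPM at 16 h (-3.81, SE 0.12). Abca9, next to Abca6 in the ABCA cluster on chromosome 11, had 4 counts in imiquimod and 81 in vehicle at 6 h, and 0 against 57 at 16 h, at least 22.3-fold lower with a floor of 3 counts over the group. Abca3 fell at both times (-0.93 and -1.62), and Abca2 fell more at 6 h (-2.00) than at 16 h (-0.19), a difference that was not tested. Abca7, a phospholipid transporter gene, rose (1.21 and 0.56), and Abca17 rose to 20.5 CPM, against 1.32 CPM, at 6 h (3.95, SE 0.16).

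Among 11 tested beta-1,3-glycosyltransferase relatives of B3galt5, 3 were higher and 7 lower at 6 h, against 37.7% and 39.2% of all genes. At 16 h 2 were higher and 6 lower, against 39.1% and 38.1%. B3gnt8, which extends branched N-glycans, fell to 6.13 CPM in imiquimod, against 38.4 CPM in vehicle, at 6 h (-2.65, SE 0.1, adjusted p = 4.08e-38) and stood at -2.10 (SE 0.089) at 16 h. B3gnt9 fell by log2 values of -1.22 (SE 0.24) and -3.03 (SE 0.28). B3gnt5, which starts the lacto-series of glycolipids, rose to 167 CPM in imiquimod, against 44.7 CPM in vehicle, at 6 h (1.90, SE 0.051, adjusted p = 2.24e-49) and by 0.94 at 16 h. B3galt6, a galactosyltransferase gene of proteoglycan linkers, rose by 1.17 (SE 0.14) and 1.37 (SE 0.13). B3gnt6 and B3gnt7, at 2.06 CPM or less in vehicle at 6 h, were lower then (-1.96 and -1.82), but B3gnt6 stood at -2.76 without imiquimod replicate 2 and B3gnt7 at -2.61 without imiquimod replicate 3. The higher call of B3gnt2 at 6 h (0.55) was lost under scaling by library totals (0.20), without a filter (0.52) and without vehicle replicate 1 (0.44) or imiquimod replicate 2 (0.37). B3galnt1, not called at 6 h (-0.75), was called under scaling by library totals (-1.10) and without vehicle replicate 1 (-0.91) or 2 (-0.96).

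Of the 8 tested PLEKHA and PLEKHB relatives of Plekha6, 2 were higher, 2 lower and 4 not called at 6 h, against 37.7% higher and 39.2% lower of all genes. At 16 h 3 were higher and 5 lower, against 39.1% and 38.1%. Their log2 fold changes ran from -2.06 to 0.97 at 6 h and from -1.17 to 0.85 at 16 h. Plekha2, a phosphoinositide-binding adaptor gene, rose by 0.97 (SE 0.038) and 0.56 (SE 0.039), and Plekha1 fell (log2 -0.52 and -0.47). Plekha7, a junction protein gene, had 11 counts against 58 at 6 h (-2.06, SE 0.43) and 20 against 35 at 16 h (-1.02, SE 0.41), where leaving out replicate 3 of the vehicle (-0.96) or replicate 2 of imiquimod (-0.94) ended the call. The lower call of Plekha4 at 16 h (-1.17) was lost without imiquimod 16 h replicate 2 (-0.85). Plekha5 was not called at 6 h (-0.16, SE 0.077), but it was under scaling by library totals (-0.51) and without a filter (-0.19). Plekhb2 was not called at 6 h either (-0.09), but it was under both of these settings (-0.44 and -0.12) and without vehicle 6 h replicate 1 (-0.14). Plekha3 was higher at 6 h (0.33) but stood at -0.02 under scaling by library totals.

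**Figure D4:**
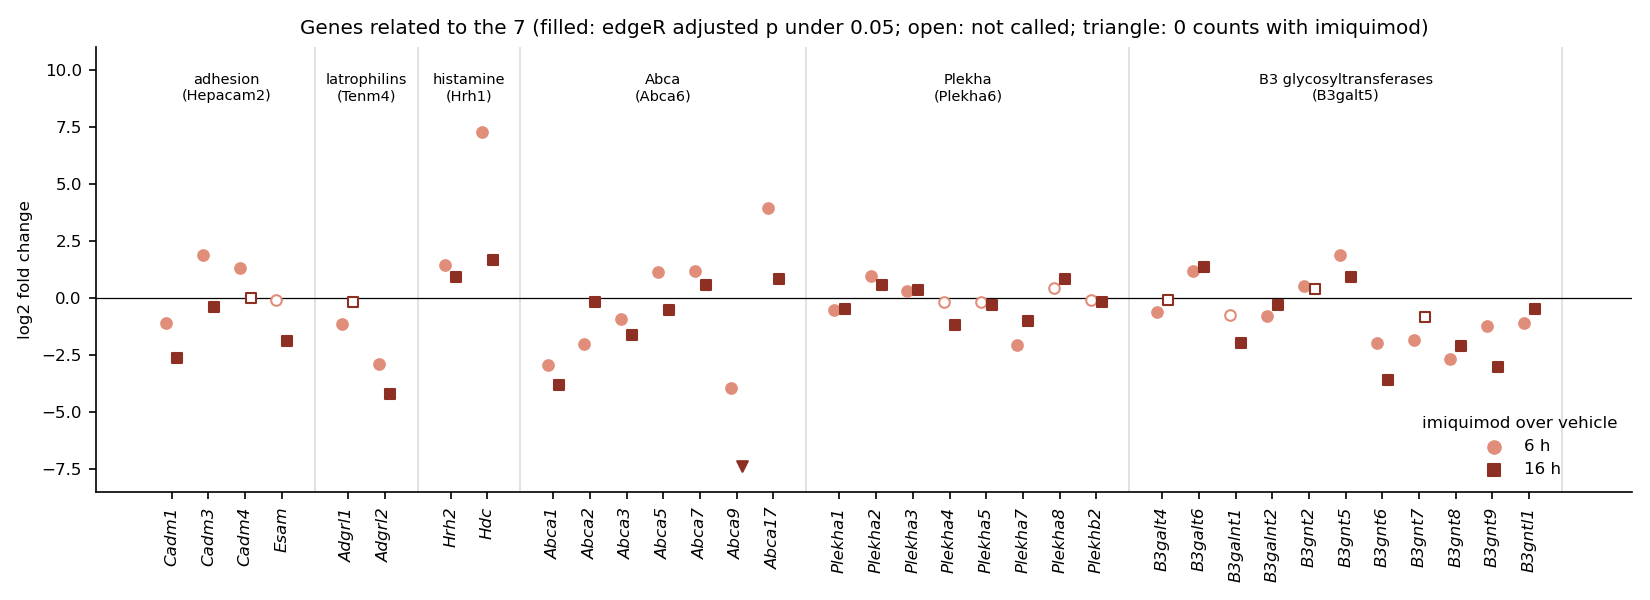
Log2 fold changes of imiquimod over vehicle at 6 h (light circles) and 16 h (dark squares) for the 34 tested relatives, grouped by the gene they relate to; open points were not called and the triangle marks Abca9, which had 0 counts in imiquimod at 16 h. Hdc stands highest at 7.26 and most relatives lie between -4.19 and 3.95.

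The nearest tested protein-coding gene on each side was taken for each of the 7 genes. Not all of them lie close by. Prcp is 3237 kb from Tenm4, Sec13 657 kb from Hrh1 and Snrpe 300 kb from Plekha6. Of these 14 neighbours 5 were higher and 8 lower at 6 h, against 37.7% and 39.2% of all genes, and 6 were higher and 8 lower at 16 h, against 39.1% and 38.1%, with medians of -0.34 and -0.33. Snrpe beside Plekha6 was not called at 6 h (-0.11), but it was under scaling by library totals (-0.46) and without vehicle 6 h replicate 1 (-0.19). Vps50, 0.084 kb from Hepacam2 in the annotation, had log2 fold changes of -0.41 (SE 0.053) and -0.33 (SE 0.051), and Samd9l on the other side rose by 1.74 (SE 0.038) and 0.24 (SE 0.04). Rpl30, a ribosomal protein gene 4.23 kb from Matn2, stood at -0.28 and -0.33, and Laptm4b on its other side rose by 1.36 and 0.94. Next to B3galt5 both neighbours fell. Sh3bgr, 6.87 kb away, fell at 6 h (-2.28, SE 0.19, edgeR adjusted p = 1.76e-18) and at 16 h (-3.75, SE 0.19, adjusted p = 9.27e-31), and Dscam, a cell adhesion gene 271 kb away, at 6 h (-3.18, SE 0.2, adjusted p = 1.05e-25) and at 16 h (-3.72, SE 0.19, adjusted p = 8.86e-30). Beside Abca6 the neighbour Abca9 fell at both times, while Abca5, 17.6 kb away, rose at 6 h (1.13, SE 0.057) and fell at 16 h (-0.51, SE 0.059). Beside Plekha6, Ppp1r15b rose by 0.80 and 0.67.

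**Figure D5:**
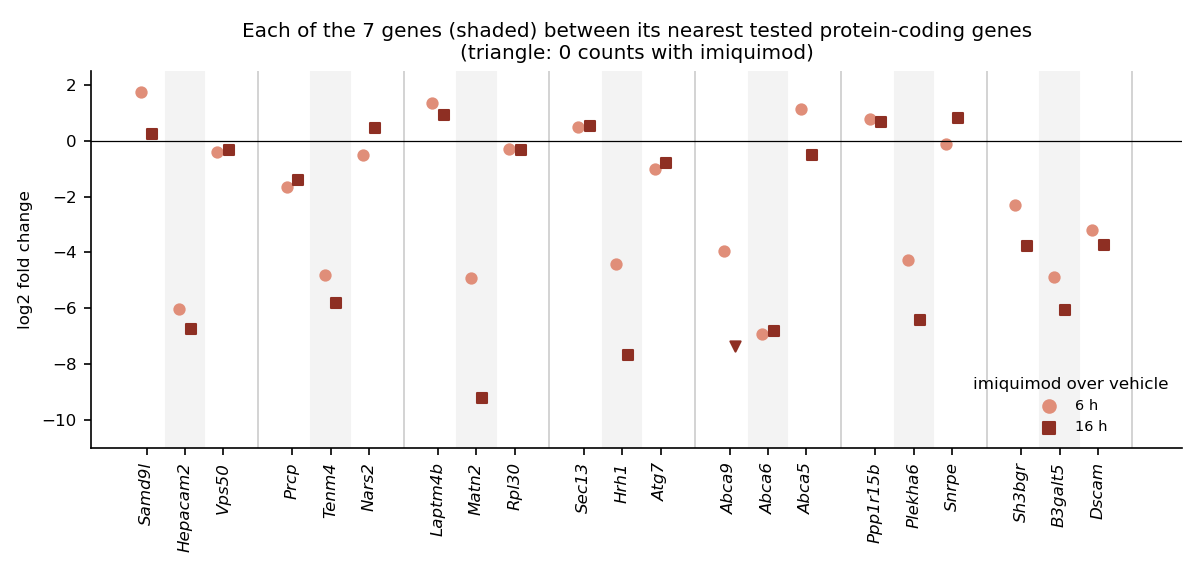
Log2 fold changes of imiquimod over vehicle at 6 h (light circles) and 16 h (dark squares) for each of the 7 genes (shaded) and its nearest tested protein-coding gene on either side, in genome order. Abca9, Sh3bgr and Dscam lie below -2, and the other neighbours lie between -1.65 and 1.74.

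Across the 18 libraries, each of the 7 genes was compared with 9388 genes of at least 5 CPM on average by the Pearson correlation of log2 CPM. The libraries fall into those with and without imiquimod, which sets most of each value, so the correlations are given as a description with no test. Hepacam2 was most like Ppfia4 (r = 0.998), Plekhg3 (0.996) and Ramp1 (0.996), and B3galt5 most like Ptprs (0.998), Iqgap2 (0.997) and Fes (0.996). Hrh1 was most like Sla2 (0.997), Padi2 (0.997) and Nfam1 (0.996), Tenm4 like Dgkz, Tcp11l2 and Slc9a9 (0.996 each), and Abca6 like Trappc5 (0.994), Spata13 (0.991) and Edem3 (0.991). Erbb3, a receptor tyrosine kinase gene, was among the top 3 both for Matn2 (0.994) and for Plekha6 (0.996). Matn2 was further like Ralgps1 (0.996) and Ccr2 (0.994), a chemokine receptor gene with 71.1 CPM in imiquimod and 1323 CPM in vehicle at 6 h and 28.5 against 1729 CPM at 16 h, and Plekha6 like Apba1 (0.997) and Inpp4a (0.996). Ptprs, a receptor phosphatase gene known as a pDC surface marker, had 116 CPM in imiquimod and 831 CPM in vehicle at 6 h, and 113 against 1039 CPM at 16 h. The 21 places held no other member of the 7.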

How the data were processed

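The 18 libraries were total RNA depleted of rRNA, made with a directional kit and read as pairs of 75 nt, per the labels' protocols. The authors deposited whole-number raw counts for each gene, with STAR and mm10 per the submitters' processing notes. For versions, the counting program, its strand setting and the annotation, the answer is not given in the sources used here. Totals ran from 10609741 to 13447018, and 97.6% of gene identifiers were in GENCODE M21, which gave coordinates and lengths.

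A single edgeR 4.0.16 model (R 4.3.3) took all 18 libraries, with the quasi-likelihood test with the robust option, TMM scaling and filterByExpr (minimum count 10), on group means. The threshold for a call was an adjusted p of 0.05 (Benjamini-Hochberg, 14876 genes). The standard error (SE) is the log2 fold change divided by the square root of F, which understates the error where one group has few counts. Count ratios carry exact 95% intervals, conditional on the summed counts. DESeq2 1.42.0 and the other alternatives are given below.

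The 7 members and all lists were chosen with earlier results of these data known. Named genes were the 7, their relatives over the filter, the nearest tested protein-coding gene on each side, cell type markers, and for each of the 7 the 3 genes of highest Pearson r, leaving out gene models, pseudogenes and RNA genes. Overlapping genes were named after their counts were seen. The fit was tested on simulated data. The main model did not pair libraries by replicate number. Whether a number stands for a shared animal or culture is not given in the labels.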

Additional observations from a re-analysis of the deposited data

Results flagged for a closer look

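Among the neighbours of the 7 genes, Abca5 and Nars2 were called in opposite directions at the 2 times, and in neither was the difference between the times tested. Abca5, an ABCA family gene beside Abca6, had a log2 fold change of 1.13 (SE 0.057) for imiquimod over vehicle at 6 h and of -0.51 (SE 0.059) at 16 h, with 82.1 CPM in imiquimod and 37.5 CPM in vehicle at 6 h and 37.3 against 52.9 CPM at 16 h. Nars2, the mitochondrial asparaginyl-tRNA synthetase gene beside Tenm4, had -0.50 (SE 0.11) at 6 h and 0.45 (SE 0.097) at 16 h.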

How the results depend on the processing

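Under the alternatives, 171 imiquimod values of the 7 genes moved by less than the spread between libraries and 11 by more, with none reversed. Of the tested vehicle values 354 kept their side of the threshold and 10 lost their call, all of Matn2 and Plekha6. Of the values of relatives and neighbours 1166 kept their side, 15 lost their call (Cadm3, Plekha4, Plekha7 and B3gnt2), 10 gained one (Plekha5, Plekhb2, B3galnt1 and Snrpe) and 1, of Plekha3, reversed. The log2 fold changes of the 7 genes in imiquimod ran from -8.16 to -4.15 at 6 h and from -10.99 to -5.63 at 16 h. The number of genes called between vehicle at 0 h and untreated cells, 0 as reported, was 1 with DESeq2 size factors, 1 with library totals, 5 with no expression filter, 5 with only the groups compared, and 0 to 7 when 1 library was left out. The cause was not tested. Scaling by library totals moved the median of all genes by -0.35 at 6 h in imiquimod, with 3704 genes higher and 8222 lower, which made 31.1% of the calls higher, not 49%, and Plekha3 stood at -0.02 there. Between vehicle at 16 h and 6 h it made 36.3% of the calls higher, not 48.7%. Same-numbered libraries deviated together no more than others (r from -0.07 to 0.04 over 45 pairs), and 5 of 18 correlated best with their own number. With the replicate block 11400 genes were called in imiquimod at 6 h, 11448 at 16 h, 0 in vehicle at 0 h over untreated, 7805 and 8633 in vehicle at 6 h and 16 h over 0 h and 4361 at 16 h over 6 h, and no call of the 7 genes changed, while Cadm3 at 16 h (-0.37) lost its call. Depth limits the falls themselves: with 0 to 18 counts per imiquimod library, the residual levels are known only within their counting intervals.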
